A study of Homo sapiens with 6 samples.

Results

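The cholesterol synthesis and SREBP genes described here are 33 genes, taken by gene symbol from the 60605 genes of the deposited table. Each symbol matched 1 row, and all 33 passed the filter on low counts and were among the 16003 genes tested. They comprise 19 synthesis enzymes from acetoacetyl-CoA to cholesterol, 6 genes of the SREBP machinery, STARD4 and TMEM97, the storage enzyme SOAT1, and 5 genes of the LXR and efflux arm.

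The libraries came from SW620, an established human colorectal cancer line. In 3 libraries the cells carried ELAPOR1, a transmembrane protein associated with endosomes and lysosomes, in the lentiviral plasmid pLVX-IRES-Puro, and in the other 3 the plasmid was empty. Both groups had received virus at a multiplicity of 20 and puromycin at 2 ug/ml, grew in medium with 10% fetal bovine serum, and gave poly(A) RNA libraries from 1 ug of total RNA. The labels give neither the promoter that drives ELAPOR1 nor whether the lines were pools or clones, and nothing in them states that libraries 1 to 3 were separate cultures, so each p-value reflects library-to-library spread alone, possibly technical.

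Cells make cholesterol from acetyl-CoA through mevalonate, squalene and lanosterol, and the mevalonate section also feeds the isoprenoids used for protein prenylation, dolichol and ubiquinone. SREBP transcription factors drive most of these genes: SCAP escorts the precursor to the Golgi, where 2 proteases release the active factor, and INSIG proteins hold SCAP in the endoplasmic reticulum when sterols are plentiful. The nuclear receptors LXR-alpha and LXR-beta act on the opposite side, sensing oxysterols and driving sterol export.

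ELAPOR1 (ENSG00000116299) averaged 10.4 CPM (counts scaled to a fixed library size) in vector libraries and 21126 CPM in ELAPOR1 libraries, a log2 fold change of 10.97 (SE 0.037, edgeR adjusted p = 1.31e-105). Library totals ranged from 16401813 to 20571924 counts. The epithelial markers EPCAM, KRT8, KRT18 and VIL1 averaged between 394 CPM (VIL1 with ELAPOR1) and 4163 CPM (KRT8 with vector), whereas CDX1 was almost absent and KRT20, LGALS4 and GPA33 averaged at most 2.20 CPM in either group. The summed level of 11 epithelial markers was 8016 to 8433 CPM in vector libraries and 7609 to 7623 CPM in ELAPOR1 libraries, with 1 of 10 tested genes higher (CDH17, log2 fold change 1.05) and 4 lower (KRT20 -1.67, CDX2 -0.56, KRT19 -0.45 and KRT8 -0.14). Among other cell types, 7 fibroblast markers summed to 17.5 to 18.8 and 24.9 to 30.1 CPM, mostly LUM, with COL1A2, COL3A1 and DCN at 0 in vector libraries. Immune markers (6 genes) summed to 5.66 to 8.89 and 7.86 to 8.92 CPM, and endothelial markers (5 genes, CDH5 and KDR at 0) to 2.47 to 2.73 and 1.97 to 2.81 CPM. The 5 genes listed as hepatocyte markers summed to 166 to 186 and 206 to 211 CPM, nearly all HNF4A and SERPINA1. ALB and CYP3A4 had only 4 and 1 counts over all libraries and TTR 0, so this sum does not mark hepatocytes. Of the 5 genes, SERPINA1 rose from a mean of 14.9 to 50.3 CPM (log2 fold change 1.75, edgeR adjusted p = 1.15e-29). HNF4A averaged 163 CPM with vector and 158 CPM with ELAPOR1 and was not called. The part of these shifts in the results below was not tested, and in bulk RNA fewer cells of a type and less RNA per cell cannot be told apart.

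Of the 33 genes, 6 rose and 3 fell in ELAPOR1 cells at an edgeR adjusted p under 0.05, and 24 did not pass. SQLE, LSS, FDFT1, SREBF2, MBTPS2 and STARD4 rose, and DHCR7, INSIG1 and HMGCS1 fell. The called share of 27.3% stood beside 21.4% of all tested genes, with 10.0% of tested genes higher and 11.4% lower, so the count of calls does not set these genes apart. Their median log2 fold change was 0.0203, beside 0.00407 over all tested genes, and 26 of 33 changed by less than 0.2 in either direction. In 14 genes the 3 libraries of one group lay wholly above those of the other (8 higher and 6 lower with ELAPOR1), against 33.8% of tested genes overall. The split of 6 higher and 3 lower moved under other settings: limma on log2(FPKM + 1) or log2(FPKM + 0.1) called 2 higher (SQLE and MBTPS2) and 4 lower (DHCR7, INSIG1, HMGCS1 and FDPS), and RLE factors in edgeR gave 7 higher and 2 lower. Without ELAPOR1 replicate 1, 3 genes rather than 6 passed as higher, because FDFT1, LSS and STARD4 then missed the threshold. The authors' deposited table, from their own test on the same 6 libraries, also put 9 of the 33 genes below an adjusted p of 0.05. These were the same 9 genes. DESeq2 as run here called 5 higher and 2 lower, without HMGCS1 and LSS (adjusted p = 0.110 and 0.0534).

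**Figure D1:**
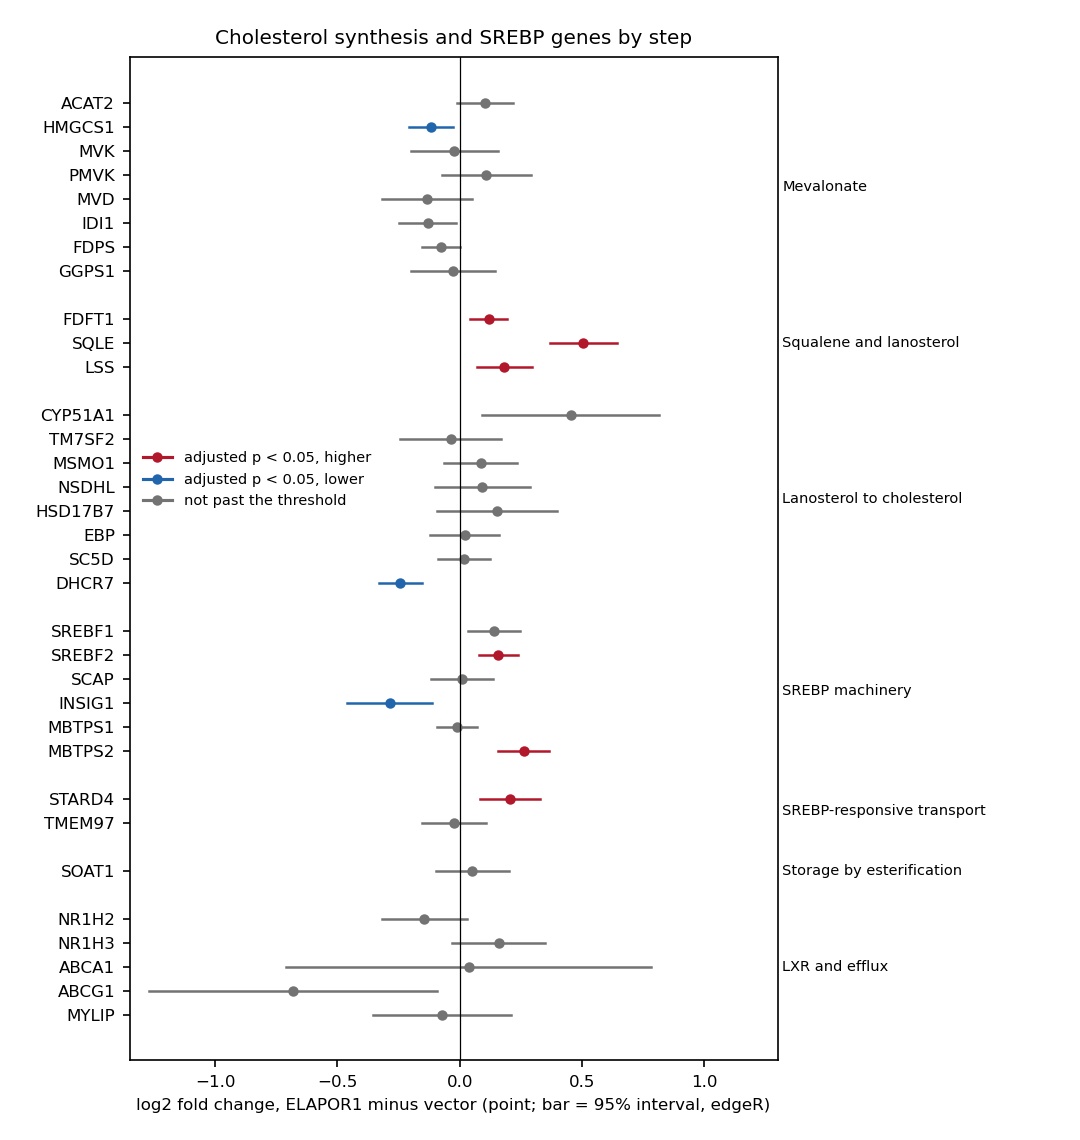
Log2 fold change (ELAPOR1 minus vector, x axis) of each of the 33 genes by step along the pathway (y axis), as a point with its 95% interval from edgeR. Red points passed the threshold as higher, blue points as lower and grey points did not pass. The 3 enzymes of the squalene and lanosterol section lie right of 0, and ABCA1 and ABCG1 have the widest intervals.

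Promoter sequences are shown for 4 of the 9 called genes, a riser and a faller of the SREBP machinery and of the enzymes, because SREBPs act with NF-Y at such promoters. RefSeq (GRCh38.p14) gave a window of 250 bases before to 50 bases after the start for 29 of the 33 genes; the others are ABCG1, ACAT2, FDFT1 and SQLE. The lines below give the 250 bases before the start of SREBF2 (chr22:41832855-41833104, plus strand), LSS (chr21:46228775-46229024, minus strand), INSIG1 (chr7:155297628-155297877, plus strand) and DHCR7 (chr11:71448394-71448643, minus strand; of 2 windows the one with more motif matches). Capitals mark TCACNCCAC, a sterol regulatory element, TCACGTGA, a palindromic E-box, and CCAAT or its complement ATTGG, the NF-Y motif, each searched on both strands.
SREBF2: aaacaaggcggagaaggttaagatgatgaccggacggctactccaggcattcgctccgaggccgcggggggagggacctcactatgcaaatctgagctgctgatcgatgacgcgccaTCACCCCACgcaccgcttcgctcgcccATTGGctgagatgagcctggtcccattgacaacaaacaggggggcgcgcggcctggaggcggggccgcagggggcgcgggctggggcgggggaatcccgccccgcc
LSS: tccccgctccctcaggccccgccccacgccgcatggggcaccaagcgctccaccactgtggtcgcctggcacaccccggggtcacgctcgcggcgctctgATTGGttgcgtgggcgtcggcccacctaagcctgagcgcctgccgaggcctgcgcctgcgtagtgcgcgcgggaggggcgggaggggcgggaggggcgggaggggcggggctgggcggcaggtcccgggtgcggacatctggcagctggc
INSIG1: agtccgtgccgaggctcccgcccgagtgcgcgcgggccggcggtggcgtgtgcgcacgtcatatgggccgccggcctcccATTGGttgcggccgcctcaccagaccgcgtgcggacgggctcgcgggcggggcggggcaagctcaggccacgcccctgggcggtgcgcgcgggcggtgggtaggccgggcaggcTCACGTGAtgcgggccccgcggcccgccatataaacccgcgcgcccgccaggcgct
DHCR7: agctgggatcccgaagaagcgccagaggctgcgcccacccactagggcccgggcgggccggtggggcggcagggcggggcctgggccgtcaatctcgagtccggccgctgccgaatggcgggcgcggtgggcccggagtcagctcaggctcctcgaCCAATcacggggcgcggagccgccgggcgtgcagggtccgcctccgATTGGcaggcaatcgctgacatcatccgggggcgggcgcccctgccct
In SREBF2 the TCACCCCAC begins at -133 and the ATTGG at -106 from the start site. In LSS an ATTGG begins at -150. In INSIG1 the ATTGG begins at -170 and the E-box at -56. In DHCR7 a CCAAT begins at -94 and an ATTGG at -48. These matches are descriptions of letters, not of binding.

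Over the full 300-base windows, TCACNCCAC occurred in SREBF2 alone of the 29 genes and TCACGTGA in INSIG1 alone. Only exact matches were searched, with N as any base, so a promoter without a match may still hold a variant of the element. In all 35116 windows the shares were 1.13% and 0.98%, and among tested genes with a window 1.44% and 2.2%. CCAAT was present in 21 of 29 genes (72.4%) and in 34.6% of all windows, or 39.7% of 27305 genes when any window of a gene counted. It occurred in 14 of the 16 synthesis enzymes with a window. Called genes of both directions held it: 3 of 4 that rose and 3 of 3 that fell. GGGCGG, a GC box and searched on both strands, was present in 26 of 29 (89.7%), beside 45% of all windows. Among the 10894 tested genes with a window, 42.8% held CCAAT and 76% held GGGCGG.

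The mevalonate section runs from ACAT2, which joins acetyl-CoA units, through HMGCS1, MVK, PMVK, MVD and IDI1 to FDPS and GGPS1, the prenyl diphosphate synthases. Of its 8 enzymes 1 fell, none rose, and the median log2 fold change was -0.05; at an unadjusted p under 0.05, 2 were lower and none higher, and DESeq2 called none of the 8. HMGCS1 (ENSG00000112972, chromosome 5, 43287470 to 43313512), which makes HMG-CoA, stood at 109, 107 and 109 CPM in vector libraries and 104, 99.95 and 96.5 CPM in ELAPOR1 libraries. All ELAPOR1 libraries lay below all vector libraries. The log2 fold change was -0.12 (95% interval -0.21 to -0.03, edgeR adjusted p = 0.0477). This was the weakest of the 9 calls: it was kept in 6 of 15 alternatives, and leaving out any single library other than ELAPOR1 replicate 1 raised the adjusted p to between 0.0678 (without vector replicate 1) and 0.224 (without ELAPOR1 replicate 3), with 0.0717 and 0.123 without vector replicates 2 and 3 and 0.108 without ELAPOR1 replicate 2.

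IDI1, the isomerase that produces dimethylallyl diphosphate, read 54.6, 58.1 and 62.5 CPM with vector and 53.0, 53.1 and 53.5 CPM with ELAPOR1. The ELAPOR1 libraries were lower and much closer to each other than the vector libraries. Its log2 fold change of -0.13 had an edgeR adjusted p of 0.106, which became 0.0314 without vector replicate 1; without vector replicate 3 the change was -0.08 (adjusted p = 0.457). FDPS (farnesyl diphosphate synthase) went from 153, 156 and 154 CPM to 145, 146 and 148 CPM, without overlap, with a log2 fold change of -0.08 (adjusted p = 0.162); limma on log2(FPKM + 1) called it (adjusted p = 0.0360). MVD, which decarboxylates mevalonate diphosphate, was also lower in every ELAPOR1 library, at -0.13 (adjusted p = 0.337).

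The other mevalonate enzymes had overlapping groups. The kinases MVK and PMVK had log2 fold changes of -0.02 and 0.11 (edgeR adjusted p = 0.900 and 0.454), ACAT2 had 0.10 (0.213) and GGPS1, which makes geranylgeranyl diphosphate, had -0.03 (0.878). The values of ACAT2, MVK and GGPS1 are uncertain because each overlaps another counted gene: TCP1 with 53842 counts against 7964 for ACAT2, MMAB with 3998 against 2505 for MVK, and ARID4B with 7806 against 2985 for GGPS1. GGPS1 also overlaps TBCE, which lies on the same strand and had 905 counts. No source used here says whether the counting took strand into account, and strand would not separate GGPS1 from TBCE. Summed over the section, FPKM (fragments scaled to gene length and library size) was 135 ± 2.71 in vector and 131 ± 2.29 in ELAPOR1 libraries (SD, n = 3 each), with overlapping ranges.

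The squalene and lanosterol section was the only one of the 7 in which every gene passed: FDFT1, SQLE and LSS all rose, with a median log2 fold change of 0.18. The group is small and was named with its results known, so this is a description. DESeq2 called SQLE and FDFT1, and limma on log2 FPKM values called SQLE alone of the 3. SQLE (squalene epoxidase, ENSG00000104549, chromosome 8, 124998497 to 125022283) converts squalene to its epoxide and is a flux-controlling step of the pathway. It read 32.8, 41.6 and 36.5 CPM with vector and 51.0, 53.9 and 52.6 CPM with ELAPOR1. No libraries overlapped, and the vector libraries spread more widely. The rise was 1.42-fold, the largest of the 9 called changes, with a log2 fold change of 0.51 (95% interval 0.37 to 0.64, edgeR adjusted p = 1.07e-08), and it was kept in all 15 alternatives.

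LSS (lanosterol synthase, ENSG00000160285, chromosome 21, 46188141 to 46228824), which folds the epoxide into lanosterol, went from 52.3, 53.2 and 54.6 CPM to 61.7, 58.9 and 61.0 CPM. Every ELAPOR1 library was above every vector library. By edgeR the log2 fold change was 0.18 (95% interval 0.07 to 0.30, edgeR adjusted p = 0.0137). The call held in 10 of 15 alternatives, and the adjusted p was 0.0678 without ELAPOR1 replicate 1 and 0.0543 without replicate 3.

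FDFT1 (squalene synthase, ENSG00000079459, chromosome 8, 11795573 to 11839304), which commits farnesyl diphosphate to sterols, went from 165, 171 and 164 CPM to 185, 176 and 182 CPM. The groups did not overlap, by a small gap. Its log2 fold change was 0.12 (95% interval 0.04 to 0.19, edgeR adjusted p = 0.0159), and the call held in 9 of 15 alternatives. The adjusted p was 0.0892 without vector replicate 3, 0.0986 without ELAPOR1 replicate 1 and 0.0730 without ELAPOR1 replicate 3. Summed FPKM of the 3 enzymes was 47.05, 50.15 and 47.82 in vector and 55.30, 54.22 and 55.27 in ELAPOR1 libraries, and the groups did not overlap.

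**Figure D2:**
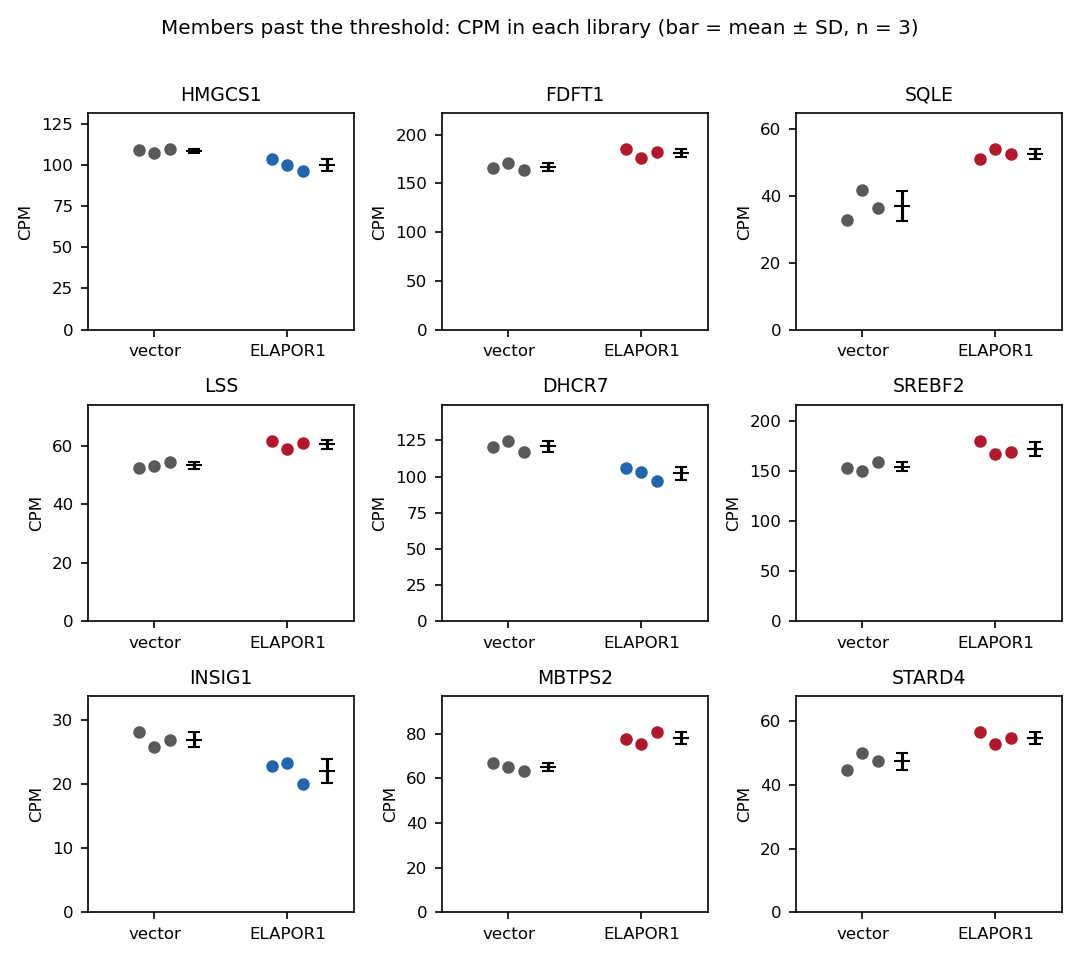
CPM in each library (y axis, from 0) for the 9 genes that passed the threshold, vector libraries left and ELAPOR1 libraries right of each panel (x axis), with the mean and SD of 3 libraries as a bar. SQLE went from 32.8 to 41.6 CPM with vector to 51.0 to 53.9 CPM with ELAPOR1, the largest change in proportion, and in all 9 panels the 2 groups do not overlap.

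From lanosterol to cholesterol, 1 of 8 enzymes fell and none rose, with a median log2 fold change of 0.05; at an unadjusted p under 0.05, 1 was higher and 1 lower, and DESeq2 called DHCR7 alone. DHCR7 (ENSG00000172893, chromosome 11, 71428193 to 71452868), whose reductase makes cholesterol from 7-dehydrocholesterol, read 120.4, 125 and 117 CPM with vector and 106, 103 and 97.2 CPM with ELAPOR1. All ELAPOR1 libraries were below all vector libraries. The fall was -0.24 on the log2 scale (95% interval -0.33 to -0.15, edgeR adjusted p = 1.55e-05) and was kept in all 15 alternatives. An unnamed antisense gene at the same locus had 873 counts against 12305 and a log2 fold change of -0.29 (adjusted p = 0.164).

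CYP51A1 (lanosterol demethylase) read 4.90, 4.31 and 4.25 CPM with vector and 6.03, 5.48 and 6.96 CPM with ELAPOR1. Its ELAPOR1 libraries were all higher, but on only 582 counts in all 6 libraries. The log2 fold change of 0.45 had a 95% interval of 0.09 to 0.81 and an edgeR adjusted p of 0.0630; limma on log2(FPKM + 1) gave 0.26. The pseudogene CYP51A1P2 took 18 counts.

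The other 6 enzymes of the section had overlapping groups. Log2 fold changes were 0.09 for the methyl sterol oxidase MSMO1, 0.09 for the dehydrogenase NSDHL and 0.15 for the ketoreductase HSD17B7, with edgeR adjusted p of 0.469, 0.571 and 0.432. The sterol isomerase EBP had 0.02 (adjusted p = 0.889), the desaturase SC5D 0.02 (0.864) and the reductase TM7SF2 -0.04 (0.860). TM7SF2 overlaps VPS51, which had 9778 counts against 1903, but only between positions 65111845 and 65111862 of chromosome 11. The effect of this overlap on the TM7SF2 value was not tested. Summed FPKM of the 8 enzymes was 77.7 ± 1.82 and 76.2 ± 1.77, and over all 19 synthesis enzymes it was 261 ± 5.59 in vector and 262 ± 0.854 in ELAPOR1 libraries (SD, n = 3 each). The squalene and lanosterol genes rose within a synthesis total whose groups overlapped.

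Of the 6 genes of the SREBP machinery, 2 rose and 1 fell (50%, beside 21.4% of all tested genes), and their median log2 fold change was 0.07. SREBF2 (ENSG00000198911, chromosome 22, 41833079 to 41907307), the SREBP that mainly drives cholesterol genes, went from 153, 149.9 and 159 CPM to 180.01, 167 and 168 CPM. The lowest ELAPOR1 library was above the highest vector library. The rise was 0.16 on the log2 scale (95% interval 0.08 to 0.24, edgeR adjusted p = 0.00148). The call held in 13 of 15 alternatives, the exceptions being limma on log2 FPKM values (adjusted p = 0.0699 and 0.0717). SREBF1, whose product mainly drives fatty acid genes, read 79.7, 70.5 and 77.0 CPM with vector and 87.7, 86.9 and 75.6 CPM with ELAPOR1.

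Library 3 of the ELAPOR1 group lay within the vector range for SREBF1, and the log2 fold change of 0.14 narrowly missed the threshold (95% interval 0.03 to 0.25, edgeR adjusted p = 0.0507). The adjusted p was 0.00811 without ELAPOR1 replicate 3 and 0.0237 without vector replicate 1, whereas without vector replicate 2 the log2 fold change was 0.09 (adjusted p = 0.338). DESeq2 gave an adjusted p of 0.2003. SREBF1 overlaps RAI1, with 8145 counts against 8725. The ratio of SREBF1 to SREBF2 in FPKM within a library was 0.451 ± 0.0242 with vector and 0.445 ± 0.0327 with ELAPOR1 (SD, n = 3 each), and the groups overlapped.

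INSIG1 (ENSG00000186480, chromosome 7, 155297776 to 155310235), the retention protein for SCAP and itself a known SREBP target, fell from 28.1, 25.7 and 26.9 CPM to 22.9, 23.3 and 19.98 CPM. All ELAPOR1 libraries were lower. The change was -0.29 on the log2 scale (95% interval -0.46 to -0.11, edgeR adjusted p = 0.0107). The adjusted p was 0.0540 without vector replicate 1 and 0.108 without ELAPOR1 replicate 3, and the call held in 13 of 15 alternatives. SCAP, the escort, had a log2 fold change of 0.01 (adjusted p = 0.939).

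The 2 Golgi proteases that cut the SREBP precursor in turn had different values. MBTPS2 (ENSG00000012174, chromosome X, 21839617 to 21885423), the intramembrane site-2 protease, read 66.8, 65.2 and 63.1 CPM with vector and 77.8, 75.6 and 80.7 CPM with ELAPOR1. All ELAPOR1 libraries were higher. The rise was 0.26 on the log2 scale (95% interval 0.16 to 0.37, edgeR adjusted p = 6.59e-05), kept in all 15 alternatives. YY2, a gene within the MBTPS2 locus, had 744 counts and a log2 fold change of -0.03. MBTPS1, the site-1 protease, had a log2 fold change of -0.01 (95% interval -0.09 to 0.07, adjusted p = 0.901).

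In FPKM, which corrects for length, the ratio of MBTPS2 to MBTPS1 was 0.515 ± 0.00838 in vector and 0.621 ± 0.0152 in ELAPOR1 libraries (SD, n = 3 each), without overlap. These ratios of paired genes were chosen after the values were seen and have no test. Summed FPKM of the 6 machinery genes was 66.2 ± 1.62 and 68.5 ± 1.63, with overlapping ranges.

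STARD4 (ENSG00000164211, chromosome 5, 111496033 to 111512590), a sterol carrier of the cytosol whose gene is SREBP-responsive, read 44.7, 49.97 and 47.4 CPM with vector and 56.6, 52.7 and 54.8 CPM with ELAPOR1. Every ELAPOR1 library was higher. The log2 fold change was 0.21 (95% interval 0.08 to 0.33, edgeR adjusted p = 0.0091), the call held in 11 of 15 alternatives (in neither limma setting), and the adjusted p was 0.0713 without vector replicate 1 and 0.0651 without ELAPOR1 replicate 1. TMEM97, a sterol-regulated membrane protein that binds NPC1, had a log2 fold change of -0.02 (adjusted p = 0.868). It overlaps IFT20, with 1790 counts against 4793. SOAT1, which esterifies cholesterol for storage in droplets, read 31.2 to 32.1 CPM with vector and 31.2 to 33.9 CPM with ELAPOR1 and had a log2 fold change of 0.05 (adjusted p = 0.707).

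None of the 5 LXR and efflux genes passed the threshold by edgeR, and at an unadjusted p under 0.05 1 was lower and none higher. DESeq2 also called none of the 5. With limma, NR1H2, NR1H3 and MYLIP were not called, and ABCA1 and ABCG1 fell below its FPKM filter and were not tested. NR1H3 (LXR-alpha) went from 16.8, 18.7 and 18.0 CPM to 19.7, 20.7 and 19.3 CPM, without overlap, with a log2 fold change of 0.16 (95% interval -0.03 to 0.35, adjusted p = 0.260). NR1H2 (LXR-beta) had -0.15 with overlapping groups (95% interval -0.32 to 0.03, adjusted p = 0.254). In FPKM the ratio of NR1H3 to NR1H2 was 0.774 ± 0.0142 with vector and 0.966 ± 0.101 with ELAPOR1 (SD, n = 3 each), without overlap. NR1H3 overlaps ACP2, with 3558 counts against 2073, and its level is uncertain.

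The exporters had few counts. ABCG1, which passes cholesterol to lipoprotein particles, read 3.32, 2.95 and 2.61 CPM with vector and 1.60, 0.992 and 2.97 CPM with ELAPOR1, on 267 counts in all libraries. ELAPOR1 library 3 lay within the vector range, and the others were lower. The log2 fold change of -0.68 had a 95% interval of -1.27 to -0.09 and an edgeR adjusted p of 0.0934; without ELAPOR1 replicate 3 it was -1.21 (adjusted p = 0.00855) and without ELAPOR1 replicate 2 it was -0.37 (adjusted p = 0.471). ABCA1, the exporter to apolipoprotein A-I, had 160 counts and a log2 fold change of 0.04 (95% interval -0.71 to 0.78), so a change smaller than this interval was not detectable at this depth. MYLIP, a ubiquitin ligase induced by LXR, had -0.07 (95% interval -0.35 to 0.21, adjusted p = 0.790).

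Absolute levels, compared as FPKM in vector libraries, ordered the genes from FDPS at 41.7, FDFT1 at 32.3, ACAT2 at 26.7 and EBP at 22.3 down to HSD17B7 at 2.34, CYP51A1 at 1.28, ABCG1 at 0.487 and ABCA1 at 0.13. Of the 33 genes, 12 averaged at least 10 FPKM and 2 averaged under 1. SREBF2, at 20.5 FPKM, was the highest of the SREBP machinery. Among the 32 pairs of neighbours in this order, 16 had overlapping vector ranges and their order is not resolved. The 95% intervals of 29 of the 33 log2 fold changes lay wholly within 0.5 of 0, as did those of 21 of the 24 genes that did not pass; the exceptions among the latter were CYP51A1, ABCA1 and ABCG1, the lowest-expressed members.

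**Figure D3:**
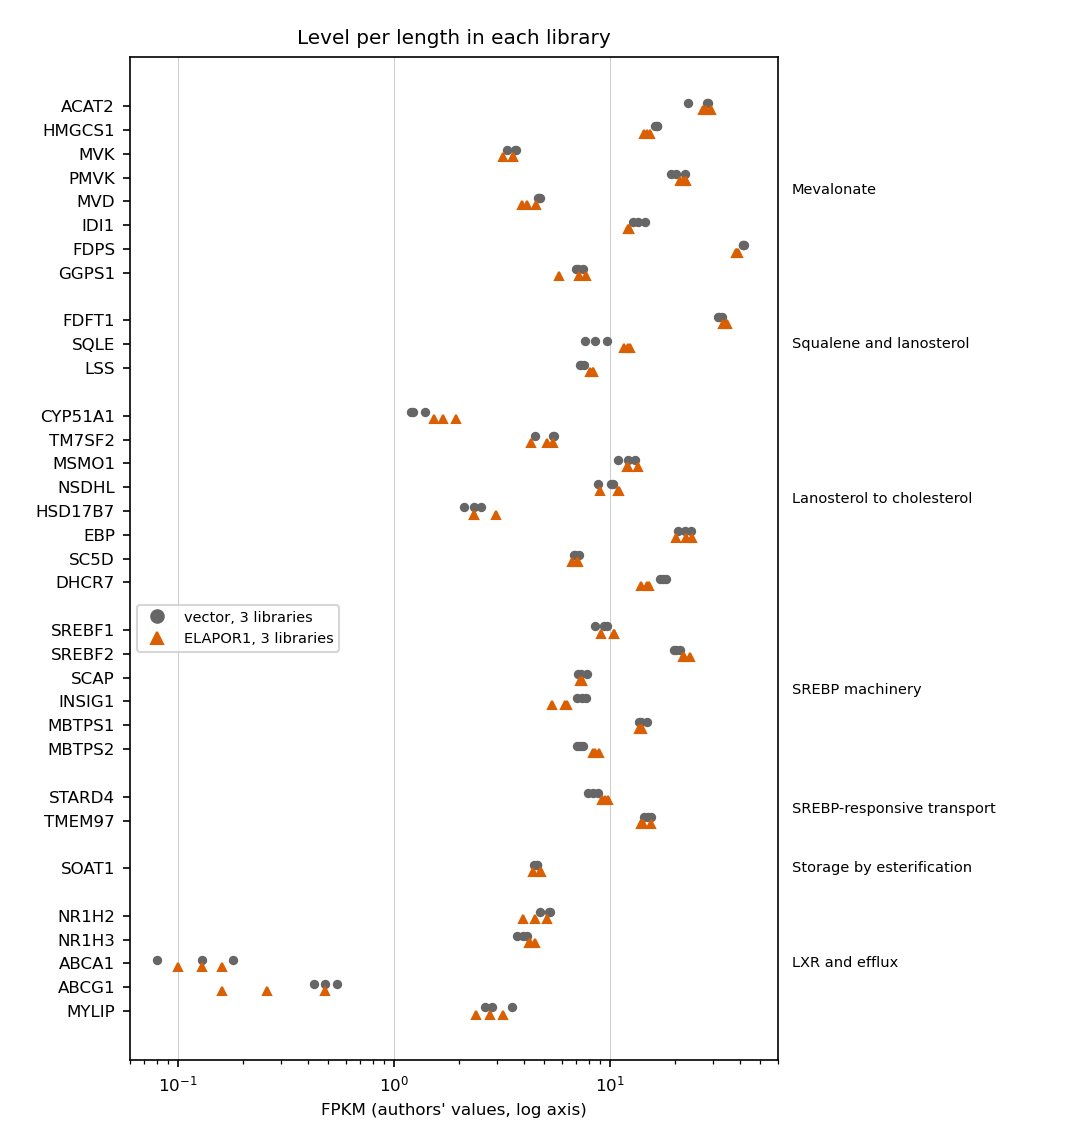
FPKM (x axis, log scale) of each of the 33 genes (y axis, grouped by step along the pathway), with separate points for the 3 vector and 3 ELAPOR1 libraries. FDPS has the highest vector mean at 41.7 FPKM and ABCA1 the lowest at 0.13, and the points of the 2 groups lie close together for most genes.

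**Figure D4:**
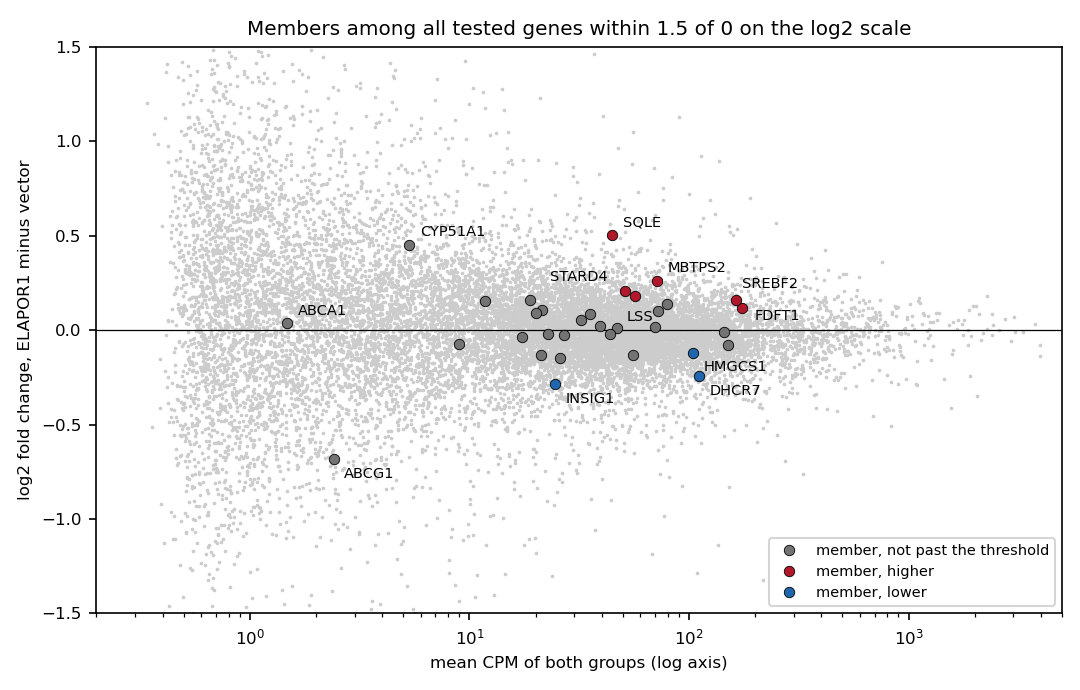
Log2 fold change (y axis) against the mean CPM of both groups (x axis, log scale) of the 33 genes over all tested genes in grey, drawn between -1.5 and 1.5 on the y axis, which leaves out 158 tested genes. Of the called genes SQLE, at 0.51, lies farthest from 0, and CYP51A1, ABCG1 and ABCA1 lie among low-count genes whose changes scatter widely.

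Neighbouring pathways were counted over 4 further gene lists. Of 13 endoplasmic reticulum and vesicle-coat partners that retain, export or degrade SREBP regulators, all tested, 1 rose and 4 fell (38.5% called, beside 21.4% of all genes), with a median log2 fold change of -0.09. ERLIN1, which helps restrain SREBP activation and targets proteins for degradation, rose from 49.4 ± 2.54 to 89.6 ± 3.55 CPM (log2 fold change 0.86, edgeR adjusted p = 4.3e-22). The COPII coat subunits SEC24D and SEC24A, which package cargo leaving the reticulum, fell by 0.63 and 0.24 on the log2 scale (adjusted p = 7.84e-07 and 0.0027). The groups overlapped for SEC24A, which limma did not call (adjusted p = 0.0940 and 0.0946). Of their paralogues, named after their values were seen, SEC24C fell by 0.14 (adjusted p = 0.0185) and SEC24B was at 0.17 (adjusted p = 0.128). SEC24D went from 23.9 ± 2.41 to 15.5 ± 2.29 CPM (SD, n = 3 each).

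Of 14 tested genes of the isoprenoid branches, 1 fell and none rose (7.14%, beside 21.4% of all genes). At an unadjusted p under 0.05, 2 were lower and none higher. The gene that fell was NUS1, a subunit of the dolichol-making prenyltransferase, at -0.10 (edgeR adjusted p = 0.0495). That call held in 7 of 15 alternatives. It was lost with DESeq2 (adjusted p = 0.0967), RLE factors (0.0540), no filter on low counts (0.0642) and limma on log2(FPKM + 0.1) (0.0513). It was also lost without any of vector replicates 2 and 3 and ELAPOR1 replicates 1 and 2 (adjusted p = 0.0695, 0.160, 0.125 and 0.251). Among 13 tested SREBP-1 fatty acid targets 3 rose and 1 fell (30.8%, beside 21.4% of all genes), with a median of 0.08. The acetate-activating ACSS2 went from 15.4 ± 1.89 to 22.3 ± 0.886 CPM (0.54, adjusted p = 1.36e-05). The NADPH source ME1 and the desaturase FADS1 rose by 0.32 and 0.22 (adjusted p = 0.000121 and 0.000114), and the elongase ELOVL5 fell by 0.19 (3.02e-05).

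Of 19 tested cholesterol transport and lysosomal release genes 3 rose and 5 fell (42.1%, beside 21.4% of all genes), with a median of -0.02. The list was drawn up with earlier results known, so this share is a description. GRAMD1C and OSBPL5 moved farthest in this list, both at low levels (values with SD, n = 3 each). GRAMD1C rose from 0.410 ± 0.217 to 1.60 ± 0.345 CPM (log2 fold change 1.91, edgeR adjusted p = 0.00126, 108 counts in all). OSBPL5 fell from 6.80 ± 0.971 to 3.13 ± 0.270 CPM (-1.12, edgeR adjusted p = 3.39e-06, or -0.44 with limma on log2(FPKM + 1)). GRAMD1A, a relative of GRAMD1C, fell by 0.27 (adjusted p = 0.000869), and SCARB2, a lysosomal membrane protein that binds cholesterol, fell by 0.20 (6.38e-05).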

How the data were processed

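Per the submitters' processing notes, reads were handled with cutadapt 1.9.1, HISAT2 2.0.1, HTSeq 0.6.1 and DESeq2 on GRCh38; the annotation release, the settings and the use of strand are not given in the sources used here. The authors deposited raw read counts per gene, FPKM values, and a table of log2 fold changes with p-values of their own comparison. Columns were matched to libraries by name, K being read as the construct (KIAA1324 is an older symbol of ELAPOR1) and NC as the negative control.

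The deposited counts went into a two-sided quasi-likelihood test of edgeR 4.0.16 (R 4.3.3) after filterByExpr and TMM scaling, with Benjamini-Hochberg adjustment over all 16003 tested genes and a threshold of 0.05. Each standard error is the size of the log2 fold change divided by the root of F, CPM uses the TMM factors, and the script was tested on simulated data. Pairs of libraries of a group differed by a mean chi-square per gene of 2.45 to 3.64, above the value that sampling noise gives, so all 6 were kept apart. Results were recomputed with DESeq2 1.42.0, with RLE factors, with library sizes alone, with 2 other filters, a replicate block, limma 3.58.1 on log2(FPKM + 1) and log2(FPKM + 0.1) for genes with at least 0.5 FPKM in 3 libraries, without ELAPOR1, and without each library.

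The members, the gene lists and the choices above were made with earlier results of these data known. All 33 members are named; from each further list, the called genes with the largest change are named, at most 4 a list. Some genes that these rules take are not reported here. Promoter sequences came from the RefSeq table.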

Additional observations from a re-analysis of the deposited data

How the results depend on the processing

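Across 15 alternatives 3 of the 9 calls were always kept (SQLE, DHCR7 and MBTPS2), and the others kept their direction. With limma on log2(FPKM + 1) and log2(FPKM + 0.1), 2133 and 2098 genes passed, 2 members were higher under each, and the median log2 fold change of the members was 0.000233 and 0.00019; ABCA1 and ABCG1 fell below the FPKM filter there. With library sizes alone the median was -0.00124. Leaving out 1 library in turn, between 3 and 6 members were higher and the median lay between 0.00588 and 0.0467.

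Signs turned for 10 members that were not called. With library sizes alone, EBP was -0.00124, SC5D -0.00333 and SCAP -0.0113, and with the 2 limma settings SC5D was -0.00306 and -0.00346 and SCAP -0.00993 and -0.0110. With 1 library left out, the ranges were -0.0399 to 0.0861 for EBP, -0.00464 to 0.0466 for SC5D, -0.0263 to 0.0467 for SCAP, -0.127 to 0.0473 for TM7SF2, -0.0365 to 0.0201 for MBTPS1, -0.0727 to 0.0220 for MVK, -0.119 to 0.0765 for GGPS1, -0.219 to 0.312 for ABCA1, -0.185 to 0.0521 for MYLIP and -0.0701 to 0.00636 for TMEM97. The cause was not tested.

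With the replicate block, 3361 genes passed, 6 members higher and 2 lower; HMGCS1 was lost (adjusted p = 0.0501). Same-numbered libraries did not deviate together (correlations -0.0216, -0.0345 and -0.0209), so the numbers were not used as pairs. DESeq2 called 2352 genes, 5 members higher and 2 lower. Counts limit CYP51A1, ABCG1 and ABCA1, with 582, 267 and 160 counts over all libraries.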
